A study of Mus musculus with 14 samples.

Results

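The comparison set ES cells labelled *Tet1/2* DKO against wild-type cells after 24 h of mTOR inhibition. Both lines are E14, a mouse embryonic stem (ES) cell line. Its members were the 4 libraries whose source names give 24 hours, 2 wild type and 2 DKO, out of 14 libraries in the series. The other 10 libraries are wild type at 0, 72 and 144 h and DKO at 0 and 72 h, with 2 replicates per group. All 4 members had received INK128, which blocks the kinase mTOR (mTORi), and were grown without feeder cells in serum with LIF. Per the study's methods, the DKO line came from E14 cells given Cas9 with a pair of guides in different exons of each gene, and sorted as single cells. A line grown from 1 cell can carry differences other than the targeted genes, and 1 DKO line was compared with its parent line. RNA-seq was done on total RNA after depletion of ribosomal RNA.

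TET enzymes oxidize 5-methylcytosine, a first step in removing DNA methylation, and TET1 and TET2 are the main TET proteins of ES cells. mTOR couples nutrients and growth signals to protein synthesis, and its inhibition puts ES cells into a slow-growing state that resembles the paused blastocyst. The comparison asks what differs between wild-type cells and cells labelled *Tet1/2* DKO one day into this transition. DKO stands for that label throughout.

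Values are TPM, a gene's share of the transcripts in a library corrected for gene length, which the authors scaled to the same total in each library, so every difference is relative to the total RNA of its library. The 4 libraries held 29077 to 29594 genes above 0, and their 10 highest genes took 23.7% to 26.0% of the TPM. TPM keep no read counts, so the depth is unknown and no counting error can be given. Replicates differed by a mean of 0.316 on the log2 scale in DKO and 0.242 in wild type at 24 h, and the DKO value is the largest of the 7 groups. The ES cell markers *Pou5f1*, *Sox2*, *Nanog*, *Zfp42*, *Esrrb* and *Dppa5a* summed to 4097 and 3972 TPM in wild type and 3785 and 3830 TPM in DKO. The 8 fibroblast markers summed to between 2.56 and 9.38 TPM, and 6 of them were below 1 TPM in all 4 libraries. Mitochondrial ribosomal RNA differed between replicates, with 313 TPM of *mt-Rnr1* in DKO replicate 1 and 2.25 to 5.46 TPM in the other 3 libraries.

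The targeted genes were checked first. *Tet2* (ENSMUSG00000040943.12, GRCm38 chr3:133463679-133545139, minus strand) was at 115 and 110 TPM in wild type and 15.9 and 20 TPM in DKO. The means were 112 ± 3.97 and 17.9 ± 2.91 TPM (SD, n = 2), so that DKO held 16% of the wild-type mean and the groups did not overlap. *Tet2* had the smallest adjusted p of the comparison, with a log2 fold change of −2.59 (SE 0.13, limma adjusted p = 2e-05). *Tet1* (ENSMUSG00000047146.17, GRCm38 chr10:62804570-62908996, minus strand) was at 274 and 255 TPM in wild type and 195 and 176 TPM in DKO. Its level in DKO was 70.2% of wild type (log2 fold change −0.51, SE 0.09, limma adjusted p = 0.023), a smaller decrease than that of *Tet2*. RNA of both targeted genes was thus still counted in DKO, and for *Tet1* most of it. A gene-level TPM does not separate reads inside and outside the stretch between the guides, so these values neither show nor exclude the deletion. The study checked the knockouts by other means. Per its methods, clones were screened by PCR for each gene, followed by western blots with antibodies to TET1 and TET2. *Tet3*, the third member of the family, was at 8.48 and 7.16 TPM in wild type and 10.5 and 11 TPM in DKO, which did not pass the test (adjusted p = 0.12).

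Of 15878 genes tested, 120 were higher in DKO (0.756% of the genes) and 157 were lower (0.989%), in limma with Benjamini-Hochberg adjusted p under 0.05. The wild-type and DKO libraries did not overlap at any of these 277 genes. Libraries did not overlap at 41.4% of all genes tested. The absolute log2 fold change of the called genes ran from 0.36 to 3.52, and 72 of them changed at least 2-fold on the scale of log2(TPM + 1), 24 higher and 48 lower. Over all genes the median difference was 0.012 on the log2 scale. The number called rested on having both replicates. It was 28 higher and 19 lower without wild-type replicate 1, 18 and 28 without wild-type replicate 2, 15 and 28 without DKO replicate 1, and 32 and 35 without DKO replicate 2. A core of 20 genes, 10 higher and 10 lower, was called in all 4 of these fits, with *Tet2*, *Nupr1*, *Chac1*, *Mthfd2*, *Lefty2* and *Rhox10* among them. The fit held no replicate block. A block across all libraries gave 68 higher and 92 lower, and one with the replicate numbers crossed between the genotypes 355 and 391. A block within each genotype was used for the differences between times only. With the spike-in scaled values, 2 genes were higher and 6 lower, while all 277 kept their sign under this scaling. The scaling factors, taken from the study's supplementary values, lay further apart between the DKO replicates than between the wild-type replicates, and both wild-type factors fell between those of DKO. The plot of mean level against difference shows these genes.

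**Figure D1:**
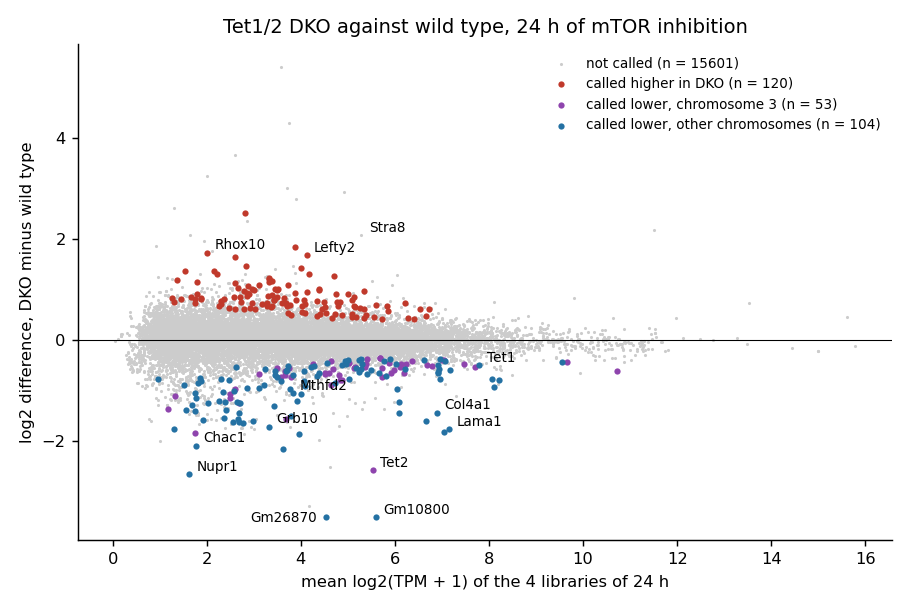
Each point is 1 of 15878 genes, with its mean log2(TPM + 1) over the 4 libraries of 24 h on the x axis and the log2 difference, DKO minus wild type, on the y axis. The 120 genes called higher are red, the 53 called lower on chromosome 3 purple and the 104 called lower elsewhere blue. *Nupr1* and *Tet2* lie near −2.6 and most called genes lie within 1 of 0.

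Genes of the primitive endoderm had the median farthest from 0 of the gene lists examined. The primitive endoderm is the layer of the blastocyst that faces the cavity, and it lays down a basement membrane of laminins and type IV collagen. ES cell cultures can hold some cells of this kind. Of 19 list members tested, 7 were lower in DKO (beside 0.989% of all genes) and 0 higher, and 18 were below 0. The median log2 fold change of the list was −1.45, beside 0.012 for all genes, of which 47.8% were below 0. Summed over the list, the level was 1984 and 1562 TPM in wild type and 733 and 804 TPM in DKO. In untreated cells the sums were 540 and 658 TPM in wild type and 627 and 578 TPM in DKO, and at 72 h all 4 libraries lay between 522 and 606 TPM. The wild-type sums at 24 h thus stood above those of all other libraries of the 3 time points, and the medians of the list at 0 h and 72 h were 0.01 and −0.02. In bulk RNA, fewer cells of a type and less RNA per cell cannot be told apart.

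The called members were mostly basement membrane genes. *Lama1*, the laminin α1 chain, was at 314 and 219 TPM in wild type and 78.1 and 73.9 TPM in DKO. Both DKO libraries lay well below both wild-type libraries (log2 fold change −1.78, SE 0.26, limma adjusted p = 0.013). *Lamb1*, the laminin β1 chain, was at 195 and 157 TPM against 61.1 and 52.8 TPM (log2 fold change −1.61, adjusted p = 0.023). *Col4a1* was at 272 and 141 TPM against 58.1 and 86.2 TPM, and *Col4a2*, its neighbour on the opposite strand and partner chain in type IV collagen, at 144 and 86.3 TPM against 33.7 and 48.1 TPM. The wild-type replicates of these collagen genes differed by more than 1.5-fold, yet the groups stayed apart. *Lamc1* and *Sparc* (a collagen-binding matrix protein) fell less, with log2 fold changes of −0.77 and −0.80. These 6 genes also make up all 6 calls of the matrix and basement membrane list (19 tested), which therefore is not a second piece of evidence.

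Transcription factors of the lineage were on average lower in DKO, and 1 of them was called. *Foxa2*, an endoderm factor, was at 5.22 and 3.14 TPM in wild type and 0.950 and 1.20 TPM in DKO (log2 fold change −1.29, adjusted p = 0.043). *Sox17* was at 12 TPM in both wild-type libraries and at 4.08 and 2.53 TPM in DKO, and it missed the threshold (adjusted p = 0.059). The groups did not overlap for either factor. *Gata6* was at 12.4 and 28.1 TPM in wild type and 13.9 and 4.77 TPM in DKO, so its groups overlapped. The 6 primitive endoderm markers, *Gata4*, *Gata6*, *Sox17*, *Sox7*, *Pdgfra* and *Foxa2*, summed to 66.1 and 116 TPM in wild type and 48.5 and 17.6 TPM in DKO. DKO replicate 1 came closest to wild type. The trophectoderm markers summed to between 5.65 and 12.5 TPM, the mesendoderm markers to between 4.63 and 5.89 TPM and the neuroectoderm markers to between 5.64 and 8.58 TPM, with no called member in any of these lists. Over the longer trophectoderm list 7 of 9 genes tested were below 0, with a median of −0.20, and the list summed to 184 and 123 TPM in wild type and 105 and 115 TPM in DKO. The calls of the list depended on single libraries. They numbered 0 without wild-type replicate 1, 4 without wild-type replicate 2, 0 without DKO replicate 1 and 1 without DKO replicate 2, 0 with spike-in scaled values and 4 with a replicate block across all libraries. The median of the list was between −1.08 and −1.77 in these fits. With a block of the replicate numbers crossed between the genotypes, 13 members were called lower, with a median of −1.45.

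Further genes were among the largest decreases by rank. *Pth1r*, the receptor for parathyroid hormone and its related peptide, was at 14.5 and 8.50 TPM in wild type and 3.22 and 2.55 TPM in DKO (log2 fold change −1.65, adjusted p = 0.023). *Bmper*, a secreted regulator of BMP signals, was at 7.70 and 7.93 TPM against 2.48 and 1.62 TPM. *Fabp3*, a fatty acid binding protein, was at 207 and 300 TPM against 90.0 and 53.2 TPM, and the pseudogene *Fabp3-ps1*, which may take up its reads, had a similar log2 fold change (−1.62, beside −1.83 for *Fabp3*). In each of these the lower wild-type library was above the higher DKO library.

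The plot of levels by library shows the time course of these genes beside the *Tet* genes.

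**Figure D2:**
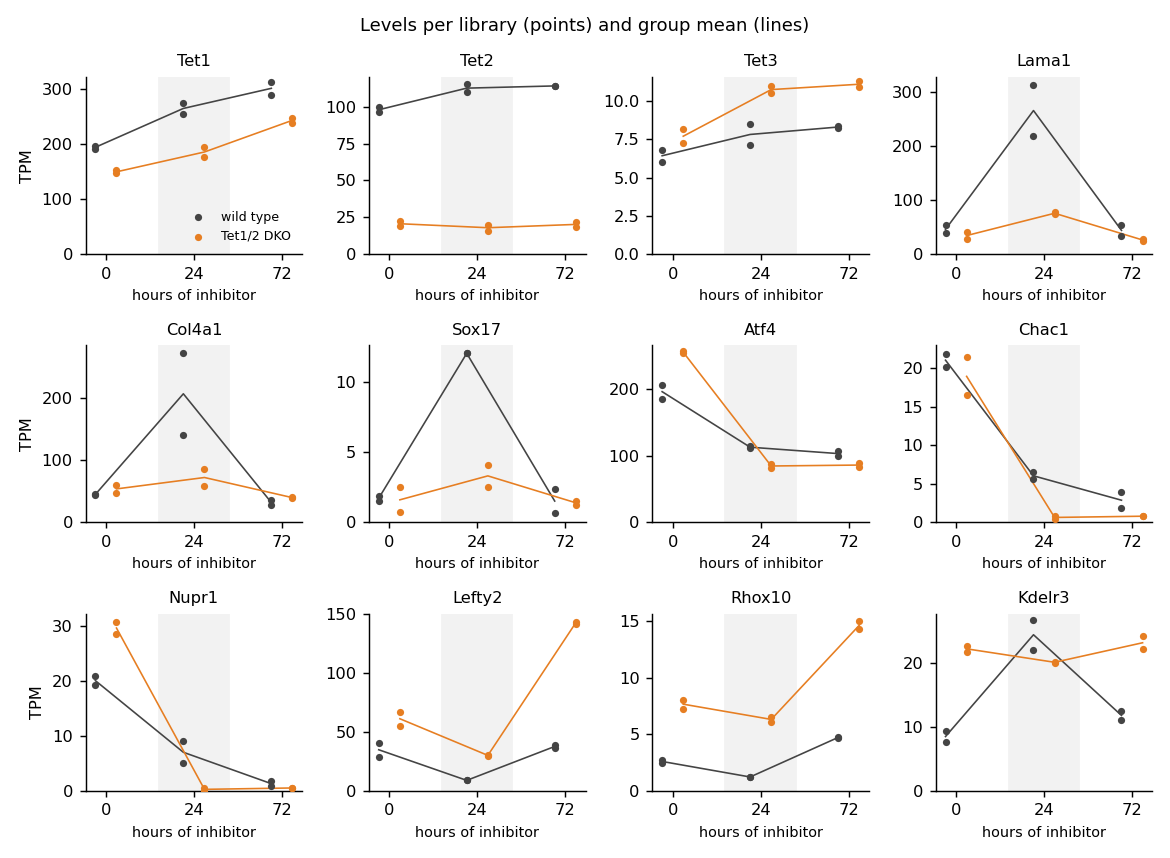
Each panel gives 1 gene's TPM (linear axis from 0) at 0, 24 and 72 h of inhibitor, with a point per library, grey for wild type and orange for DKO, and lines through the group means. The grey band marks 24 h. *Lama1*, *Col4a1* and *Sox17* were highest in wild type at 24 h, and *Atf4*, *Chac1* and *Nupr1* were lower at 24 h than at 0 h in both genotypes.

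Target genes of ATF4 formed the next group. ATF4 is a transcription factor made in larger amounts when amino acids are short or the endoplasmic reticulum is stressed, and mTOR activity also raises its output. Its targets cover amino acid uptake and synthesis, one-carbon metabolism and stress responses. Of 19 members tested, 6 were lower in DKO at 24 h (beside 0.989% of all genes) and 0 higher, and 18 were below 0, with a median log2 fold change of −0.35. The medians at 0 h and 72 h were 0.19 and −0.01. At 24 h, the members below 0 numbered 14 with spike-in scaled values and 13 to 17 when one library of 24 h was left out. *Atf4* itself was at 111 and 114 TPM in wild type and 81.8 and 87.0 TPM in DKO (log2 fold change −0.41, SE 0.09, adjusted p = 0.044). Before treatment its level was 206 and 185 TPM in wild type and 253 and 256 TPM in DKO.

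The stress branch of the list had the largest changes. *Nupr1*, a small stress-induced chromatin protein (ENSMUSG00000030717.9, GRCm38 chr7:126623249-126630861, minus strand), was at 5.02 and 9.01 TPM in wild type and 0.470 and 0.0183 TPM in DKO. Its log2 fold change was −2.67 (SE 0.28, limma adjusted p = 0.0038). *Chac1*, which degrades glutathione (ENSMUSG00000027313.3, GRCm38 chr2:119351229-119354381, plus strand), was at 5.61 and 6.49 TPM in wild type and 0.818 and 0.484 TPM in DKO (log2 fold change −2.10, SE 0.23, adjusted p = 0.0043). DKO thus held 3.48% of the wild-type mean of *Nupr1* and 10.8% of that of *Chac1*. *Trib3*, a pseudokinase that acts on AKT and on ATF4 itself, fell by 1.46 on the log2 scale, and *Ddit3*, the stress factor CHOP, by 0.96. *Ddit3* is carried by 2 overlapping gene identifiers, of which the second is listed at 0 in all 4 libraries, so their sum equals the called one (wild type 8.07 and 10.4 TPM, DKO 4.71 and 3.78 TPM).

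In the metabolic branch, *Mthfd2*, a mitochondrial enzyme of the folate cycle, was at 19.2 and 20 TPM in wild type and 8.24 and 9.42 TPM in DKO (log2 fold change −1.07, SE 0.11, adjusted p = 0.0038). In contrast, *Asns* (asparagine synthetase) was at 403 and 314 TPM against 289 and 378 TPM, and *Psat1* (serine synthesis) at 52.9 and 62.2 TPM against 58.3 and 45.8 TPM, and neither passed the test (adjusted p = 0.82 and 0.71). The groups overlapped for both. Decreases outside the list included *Pck2*, the mitochondrial PEP carboxykinase (9.31 TPM in both wild-type libraries, 1.52 and 3.40 TPM in DKO), and *Wars*, the tryptophanyl-tRNA synthetase (58.4 and 67.2 TPM against 38.9 and 39.5 TPM). *Wars* was the 1 called gene of 20 aminoacyl-tRNA synthetases tested, beside 0.989% of all genes called lower. *Chac1*, *Nupr1* and *Mthfd2* were called when any one of the 24 h libraries was left out, and the calls of the list numbered 3 or 4 in these 4 fits. With spike-in scaled values 2 members, *Chac1* and *Nupr1*, were called.

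The promoters of the lower genes were searched for TGATGCAA and its other strand TTGCATCA, the composite C/EBP and ATF site that ATF4 binds as a dimer with a C/EBP protein. The motif was chosen after the genes were known. It occurs in 0.895% of all 32851 promoters of the RefSeq table (GRCm38.p6, from 250 bases before to 50 after the start site). A promoter was in the table for 79.0% of the genes called lower and 63.4% of the genes tested, so a comparison of shares between the sets was void. Of the 124 genes called lower with a promoter in the table, 6 held the motif, and no enrichment is read from this count. Of the 6, 4 are printed to show where it lies. They are *Chac1* and *Nupr1*, *Slc1a4* (a neutral amino acid transporter) and *Herpud1* (a protein of endoplasmic reticulum quality control), and the other two are *Hax1* and *Serpinb6c*. The sequences read 5′ to 3′ along the gene with the motif in capitals, and each ends before the start site except that of *Slc1a4*, in which the motif crosses the start site.
Chac1, chr2:119351009-119351096, plus strand: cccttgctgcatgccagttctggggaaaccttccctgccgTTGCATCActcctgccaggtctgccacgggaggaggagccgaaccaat
Nupr1, chr7:126625533-126625620, minus strand: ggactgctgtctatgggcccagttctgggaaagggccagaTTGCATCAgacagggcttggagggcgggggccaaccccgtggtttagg
Slc1a4, chr11:20332710-20332757, minus strand: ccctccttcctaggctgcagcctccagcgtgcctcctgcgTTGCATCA
Herpud1, chr8:94386277-94386364, plus strand: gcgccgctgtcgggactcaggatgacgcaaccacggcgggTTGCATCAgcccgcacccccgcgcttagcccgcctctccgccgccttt

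The motif starts 193 bases before the start site in *Chac1*, 110 in *Nupr1*, 4 in *Slc1a4* and 112 in *Herpud1*. Start sites are those of the RefSeq table, and that of *Nupr1* lies inside the gene span given above rather than at its edge. *Slc1a4* was at 5.61 and 7.17 TPM in wild type and 2.55 and 1.83 TPM in DKO (log2 fold change −1.21, adjusted p = 0.0068). *Herpud1* was at 6.15 and 6.40 TPM against 3.68 and 2.75 TPM (log2 fold change −0.80, adjusted p = 0.035). Both DKO libraries were below both wild-type libraries in each. A match describes the sequence only, and no binding was measured in these libraries.

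The increases were smaller than the largest decreases and covered many functions. *Lefty2*, a secreted inhibitor of Nodal (ENSMUSG00000066652.5, GRCm38 chr1:180893108-180899103, plus strand), was at 8.81 and 8.74 TPM in wild type and 29.6 and 30.5 TPM in DKO. This is a 3.42-fold ratio of the means (log2 fold change 1.67, SE 0.15, limma adjusted p = 0.0022), and the replicates of each genotype were close. Of 15 tested genes of the Nodal, BMP and Id list it was the 1 called gene, beside 0.756% of all genes called higher. *Lefty1*, its neighbour in the family, was at 7.10 and 17.8 TPM against 31.5 and 10.1 TPM, with overlapping groups. *Nodal* was at 74.2 and 76.3 TPM against 63.5 and 74.9 TPM. *Tgfb1*, a ligand of the same superfamily, was at 6.72 and 5.25 TPM in wild type and 13.1 and 16.2 TPM in DKO (log2 fold change 1.16, adjusted p = 0.026).

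*Rhox10*, a homeobox gene of an X-linked cluster expressed in the germ line (ENSMUSG00000053909.8, GRCm38 chrX:38066475-38071691, plus strand), was at 1.20 and 1.23 TPM in wild type and 6.53 and 6.10 TPM in DKO (log2 fold change 1.72, SE 0.13, adjusted p = 0.00059). It was the 1 called gene of 7 *Rhox* genes tested. The X-linked genes *1700013H16Rik* (7.10 and 6.36 TPM against 33.6 and 21.1 TPM) and *Scml2*, a Polycomb-related gene (6.39 and 4.8 TPM against 11.9 and 16.8 TPM), were also higher. On the X chromosome 10 of 590 tested genes were higher (1.69%, beside 0.756% of all genes) and 0 lower. Chromosomes 1 and 15 had similar shares (1.52% and 1.53%).

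Metabolic and signalling genes followed. *Atp1b2*, a β subunit of the sodium pump, was at 10.3 and 10.5 TPM in wild type and 24.8 and 29.7 TPM in DKO (log2 fold change 1.30, SE 0.11, adjusted p = 0.0018). *Qprt*, an enzyme of NAD synthesis, was at 1.91 and 1.64 TPM against 6.61 and 5.68 TPM. *Bok*, of the BCL2 family, was at 2.54 and 1.49 TPM against 6.30 and 6.33 TPM. *Cdkn2a*, the locus of p16 and p19ARF, was at 4.87 and 3.88 TPM against 8.14 and 9.28 TPM (log2 fold change 0.86, adjusted p = 0.025). The lower DKO library was at least 1.5 times the higher wild-type library in each of these. *Alpl*, tissue-nonspecific alkaline phosphatase, was outside the naming rule and was chosen after its values were seen. It was at 82.9 and 87.8 TPM in wild type and 127 and 134 TPM in DKO (log2 fold change 0.61, adjusted p = 0.014). Among the called genes the largest increase belonged to an identifier of *Nnt* (2.51). A second identifier of the same name overlaps it on the same strand, and the sum of both was 17.2 and 13.1 TPM in wild type and 18.9 and 19.1 TPM in DKO, so the value of 1 identifier is uncertain as a gene level.

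Genes kept silent by DNA methylation in somatic cells were looked at as a list, since TET enzymes act on this mark. Of 32 germline genes tested 0 were called, 29 were above 0 and the median was 0.39, beside 52.2% above 0 among all genes. The medians at 0 h and 72 h were 0.53 and 0.56. *Stra8*, which is needed for entry into meiosis, was at 11.3 and 28.7 TPM in wild type and 135 and 46.3 TPM in DKO. Its groups did not overlap, but its replicates differed by more than 2-fold within each genotype (log2 fold change 2.07, adjusted p = 0.082). Of 39 imprinted genes tested 1 was called, beside 0.756% of all genes called higher and 0.989% called lower. This was *Grb10*, an adaptor that restrains insulin signalling, which was at 20.2 and 14.5 TPM against 4.63 and 4.35 TPM (log2 fold change −1.72, adjusted p = 0.018) and was also lower at 0 h (−1.73) and 72 h (−1.51). Of 11 DNA methylation writers 0 were called.

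Markers of the 2-cell-like state, a rare state of ES cells that expresses genes of the early embryo, had no called member and a shared direction. All 17 members tested were below 0, beside 47.8% of all genes. The libraries of 16 did not overlap, beside 41.4% of all genes in either direction, and the median was −1.14. *Zscan4c* was at 10.1 and 11.9 TPM in wild type and 3.73 and 1.95 TPM in DKO (log2 fold change −1.68, adjusted p = 0.084). Summed over the list, the levels were 65.8 and 92.7 TPM against 27.9 and 15 TPM, and at 0 h 152 and 313 TPM against 134 and 61 TPM. The median was −0.90 at 0 h and 0.08 at 72 h. The *Zscan4* copies are near-identical and reads may be split among them, so their values are not independent of each other.

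Other lists had small shifts in the median. Of all genes tested, 47.8% were below 0 and 0.989% were called lower. None of the 22 naive pluripotency genes was called, with a median of −0.22 and 16 below 0. *Pou5f1* was at 992 and 882 TPM in wild type and 792 and 931 TPM in DKO, *Zfp42* at 633 and 652 against 662 and 628 TPM, and *Nanog* at 275 and 301 against 230 and 190 TPM (adjusted p = 0.71, 0.99 and 0.28). *Tcf7l1*, a repressor of the pluripotency network, was at 37.7 and 46.5 TPM against 23.8 and 24.2 TPM (log2 fold change −0.78, adjusted p = 0.010). In the list of TFE3, folliculin and lysosome genes, 27 of 32 were below 0 (median −0.21). With spike-in scaled values 23 of them were below 0 (median −0.12). The libraries of 17 did not overlap in the lower direction and those of 2 in the higher, beside 41.4% of all genes in either direction. Of 88 cytosolic ribosomal protein genes 76 were below 0, with a median of −0.13 and 3 calls, *Rps27*, *Rps3a1* and *Rps3a3*. With spike-in scaled values the median of all genes was 0.10, the ribosomal median was −0.03 and 55 were below 0. *Rps27* and *Rps3a1* lie on chromosome 3, and *Rps3a3* is a copy of *Rps3a1* that may share its reads.

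In the remaining lists 0 or 1 gene was called in each direction, beside 0.756% of all genes called higher and 0.989% called lower. *Pdk1*, which shuts pyruvate out of the mitochondrial pathway, was the 1 called gene of 19 in the glycolysis list, at 63.2 and 50.1 TPM in wild type and 96.8 and 91.4 TPM in DKO. *Spred2*, an inhibitor of ERK signalling, was the 1 called gene of 17 in the FGF and ERK list, at 74.2 and 71.3 TPM against 94.7 and 100 TPM. *Ifitm1* was lower among 17 interferon-stimulated genes (81.7 and 129 TPM against 49.1 and 37.5 TPM). In the list of NRF2 targets (15 tested), *Srxn1* was higher and *Gstm1* lower. Nothing was called among 14 LIF and STAT3 genes, 16 formative and primed pluripotency genes, 17 apoptosis and p53 genes, 18 Polycomb genes, 16 genes of H3K9 methylation and KAP1, 15 mitochondrially encoded genes, 62 replication-dependent histone genes or 14 snoRNA host genes. The medians of these lists ran from −0.15 to 0.11.

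**Figure D3:**
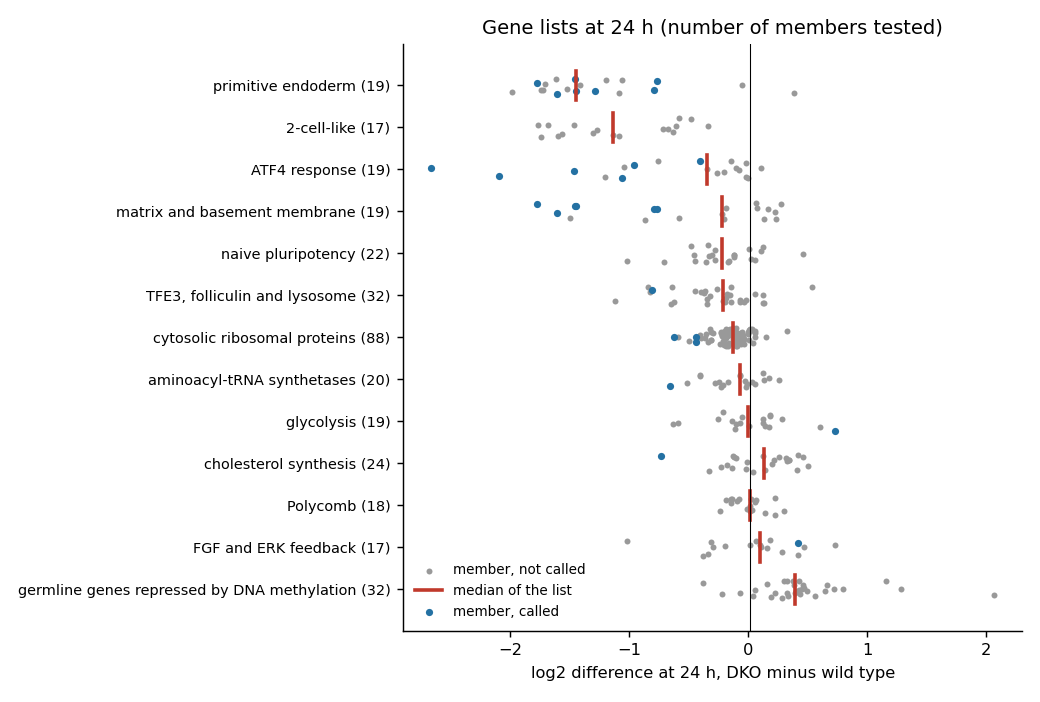
Each point is a gene of a list, with its log2 difference at 24 h, DKO minus wild type, on the x axis, blue where called and grey where not. Red bars are list medians, and the black line is the median of all genes. The primitive endoderm list has its median at −1.45, the 2-cell-like list at −1.14 and the germline list at 0.39.

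The called genes were next followed to untreated cells and to 72 h. These comparisons share no library with the one at 24 h. At 0 h, 92 genes were higher (0.579%) and 37 lower (0.233%), and at 72 h 658 were higher (4.14%) and 170 lower (1.07%). Of the 120 genes higher at 24 h, 119 were above 0 at 0 h and 116 at 72 h, and 50 and 79 were called in the same direction. Of the 157 lower genes, 137 were below 0 at 0 h and 143 at 72 h, and 24 and 47 were called. Among all genes the sign was shared by 67.7% and 68.0%. The higher genes had medians of 0.57 (0 h), 0.76 (24 h) and 0.63 (72 h). Most increases were therefore present, in sign, before the inhibitor was added.

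The lower genes away from chromosome 3 followed another course. Over these 104 genes the median went from −0.23 (0 h) to −0.82 (24 h) and −0.32 (72 h), of which 11 were called at 0 h and 25 at 72 h. Since these genes were chosen at 24 h, the larger size there is fixed in part by the choice. *Lama1*, *Col4a1*, *Chac1* and *Nupr1* had log2 fold changes of −0.42, 0.25, −0.15 and 0.54 at 0 h, none of which passed the test. Conversely *Tet2*, *Spink1* (a secreted trypsin inhibitor) and *Grb10* were called at all 3 times.

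**Figure D4:**
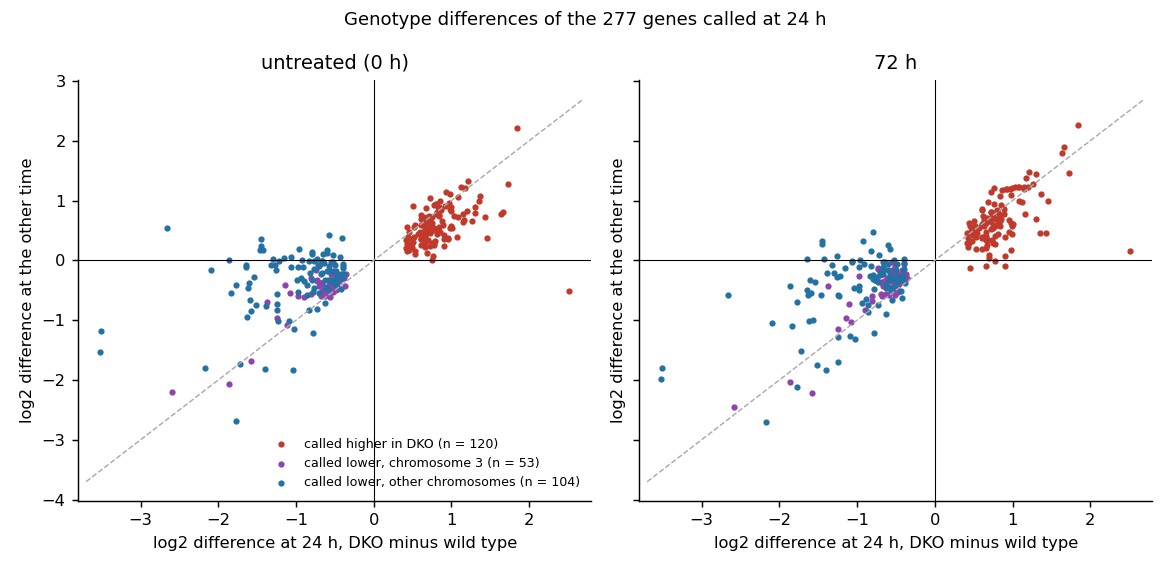
Each point is 1 of the 277 genes called at 24 h, with its log2 difference at 24 h on the x axis and at 0 h (left) or 72 h (right) on the y axis. The dashed line marks equal differences. Most red points (higher, n = 120) lie near the line in both panels, an identifier of *Nnt* apart, and many blue points (lower outside chromosome 3, n = 104) lie near 0 on the y axis.

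Whether the genotype difference itself changed over the first 24 h was tested by the difference of the differences. Limma called 0 genes of 15878 (0.0%), with 620 at an unadjusted p under 0.05, and the smallest adjusted p was 0.0503. That gene was *Kdelr3*, a receptor that returns proteins to the endoplasmic reticulum. It was at 9.26 and 7.65 TPM in wild type and 21.7 and 22.6 TPM in DKO at 0 h, and at 26.7 and 22 TPM against 20 and 20.1 TPM at 24 h. The genotypes were apart before treatment and close after it. With the replicate number as a block within each genotype, which the pairing of the time points warrants, *Kdelr3* was the 1 gene called (difference −1.55, SE 0.14, limma adjusted p = 0.023). In fits without the block, its adjusted p was 1.0 with spike-in scaled values, 0.019 without wild-type 0 h replicate 1 and 0.064 to 0.27 when another library of 0 h or 24 h was left out. These changes were not made together with the block. *Nupr1* had a difference of −3.21 (adjusted p = 0.075, and 0.097 with this block), and over all alternatives its adjusted p ran from 0.035 to 0.28. It was called with spike-in scaled values (−3.90, limma adjusted p = 0.035). A block with the replicate numbers crossed between the genotypes also called it (limma adjusted p = 0.038). For *Atf4* the difference was −0.79 (0.18, and 0.038 with the crossed block). For *Chac1* it was −1.94 (0.28) and for *Lama1* −1.36 (0.87). From 24 h to 72 h limma also called 0 genes (0.0%), with 945 at an unadjusted p under 0.05, and 0 with the block. In the fit without a block, the genes called at 24 h and not at 0 h are thus not shown to differ between these times.

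Genes called lower were unevenly spread over the chromosomes. Of 759 genes tested on chromosome 3, which carries *Tet2*, 53 were lower (6.98%) and 1 higher (*Elovl6*), so chromosome 3 held 53 of the 157 lower calls. On the other 19 chromosomes with at least 100 genes tested, 0.0% to 1.35% were lower. Chromosome 3 had a median log2 fold change of −0.228 (24 h), −0.214 (0 h) and −0.122 (72 h), and 75.4% of its genes were below 0 at 24 h. The medians of the other 19 ran from −0.154 (chromosome 12) to 0.075 (chromosome 11) at 24 h, with chromosome 17 at −0.118. All 53 lower genes of chromosome 3 were below 0 at 0 h and 72 h too.

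The shift was present in each DKO library. The median of chromosome 3 minus that of all other genes, each against the wild-type mean, was between −0.280 and −0.201 in the 6 DKO libraries and between −0.018 and 0.012 in the 8 wild-type libraries. In the DKO libraries of 24 h it was −0.233 and −0.280. Chromosomes 12 and 17 were also lower in all 6 DKO libraries, by ranges that overlap that of chromosome 3 (−0.275 to −0.076 and −0.215 to −0.085), where the wild-type libraries lay between −0.099 and 0.050 and between −0.047 and 0.031. It did not cover the whole chromosome. From its start to 110 Mb the median was −0.25 over 585 genes, of which 46 were called lower. From 110 Mb to *Tet2* it was 0.05 over 85 genes, of which 1 was lower and 1 higher. From *Tet2* to the end it was −0.28 over 88 genes, of which 5 were lower. The level of the first stretch corresponds to 84.0% of wild type at the median. Among the genes called on chromosome 3 were *Cenpe*, a kinesin of the kinetochore (91.8 and 89.5 TPM against 58.1 and 56.4 TPM), *Gstm1*, a glutathione transferase (32.4 and 33.5 against 18.3 and 16.4 TPM), and *Pmvk* of cholesterol synthesis (17.3 and 16.6 against 10.5 and 9.12 TPM). When the log2 values of each chromosome were centred on their own median in each library, 5 genes of chromosome 3 were lower and 4 higher, and elsewhere 80 were lower. The cause of the shift was not tested, and what lies on chromosome 3 cannot be told apart from the targeting of the *Tet* genes in a single line.

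**Figure D5:**
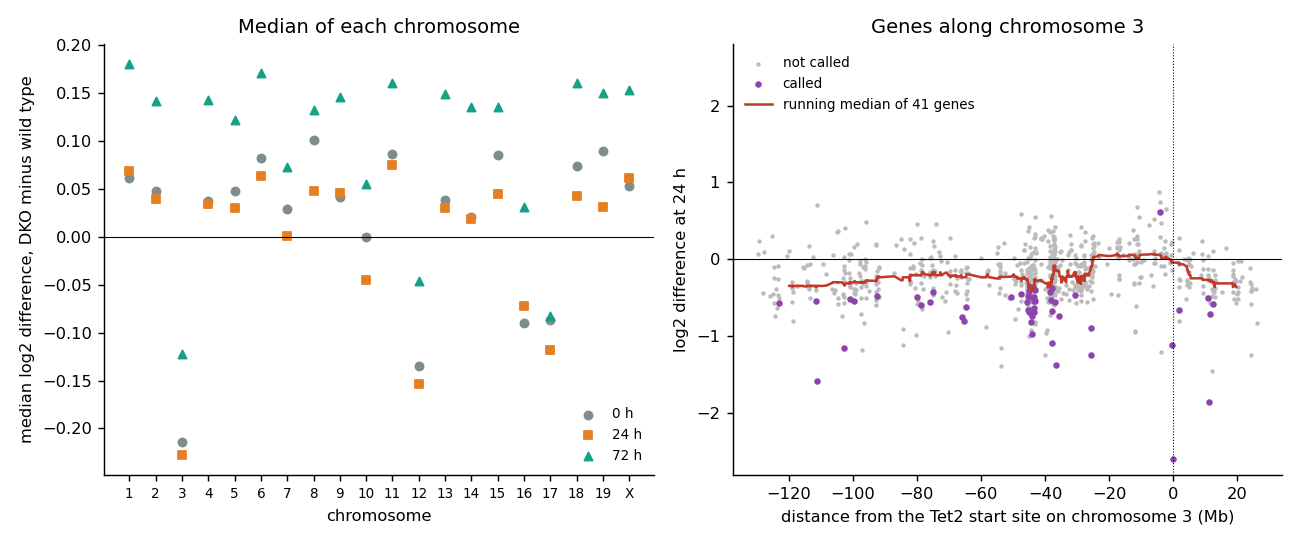
Left, the median log2 difference, DKO minus wild type, of each chromosome with at least 100 genes tested, at 0 h (circles), 24 h (squares) and 72 h (triangles). Right, genes of chromosome 3 by distance from the *Tet2* start site in Mb (positive towards the distal end), with the log2 difference at 24 h, called genes in purple and a running median in red. Chromosome 3 has the lowest median at each time, and the running median is near 0 in the stretch before *Tet2*.

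Several of the largest decreases belonged to predicted genes. *Gm10800* (GRCm38 chr2:98666547-98667301) was at 154 and 171 TPM in wild type and 16.6 and 10.5 TPM in DKO, and *Gm26870* (GRCm38 chr9:3000282-3038313) at 79.4 and 74.9 TPM against 6.24 and 5.45 TPM. Their log2 fold changes of −3.52 and −3.51 were the largest decreases among the called genes. *Gm26870* overlaps 9 other predicted genes on the opposite strand. Both had lower fitted values in DKO at 0 h (−1.53 and −1.19, not called) and were called at 72 h (−1.98 and −1.81). Reads of such loci can have more than one origin in the genome, so the values are uncertain as gene levels.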

How the data were processed

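RNA-seq of 14 libraries was used. Per the labels, the authors trimmed reads with cutadapt 2.4, aligned them to mm10 with STAR 2.7.3a and quantified TPM with StringTie 2.0. The deposited TPM sum to 1000000 in each library over 54446 gene identifiers, with repeated entries summed here. No entry is an ERCC spike-in. The analysis used log2(TPM + 1) of the 15878 genes that averaged 1 TPM or more, from 38890 detected. A single limma fit covered all 7 groups (limma 3.58.1, R 4.3.3, empirical Bayes with a mean-variance trend), with Benjamini-Hochberg adjustment over all genes tested and a threshold of 0.05. TPM keep no counts, so no count model was used. Alternatives changed the pseudocount, the filter, the scaling, the trend, the replicate block or the libraries included.

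The replicate numbers pair libraries within a genotype: the study states that time points of a replicate were handled in parallel, and replicate differences correlated across genes at 0.294 to 0.461 in wild type and 0.247 to 0.405 in DKO over 0, 24 and 72 h. Across the genotypes the correlation was −0.553 at 24 h. Replicates are biological per the study.

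The members, the gene lists and the naming rule were chosen with earlier results of these data known. Named genes are the *Tet* genes and called list members, the 12 largest called increases and decreases, the next 12 of each without predicted-gene names, called genes of the tests between times, and up to 4 members per list. Others are marked as chosen after their values were seen, as are *Slc1a4*, *Herpud1*, *Hax1*, *Serpinb6c*, *Asns*, *Psat1*, *Nodal*, *Pou5f1*, *Zfp42*, *Sox17*, *Gata6*, *Elovl6*, *Cenpe* and *Kdelr3*. The planned check of CpG content and motifs over promoters was void, since under 80% of the genes had a promoter in the RefSeq table. In simulated data for the 24 h comparison (15878 genes, 200 changed), 62.5% were called at a log2 change of 1, 93.5% at 2 and 99.5% at 3. For the difference of the genotype difference between 24 h and 0 h, 36.5% were called at 1, 80% at 2 and 96.5% at 3. The simulated noise was drawn independently for each library, so it held no pairing of replicates. Spike-in scaling used the median ratio of the study's supplementary values to the deposited TPM in each library. The result of 1 called gene is not reported here.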

Additional observations from a re-analysis of the deposited data

Results flagged for a closer look

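*Kdelr3* stood out because its genotype difference at 24 h differed from that at 0 h, by −1.55 on the log2 scale, in the fit with a replicate block within each genotype (limma adjusted p = 0.023). The genotypes differed by 1.30 before treatment, by −0.26 after 24 h and by 0.92 after 72 h. Its difference between the times was also called with a pseudocount of 0.1 TPM, with a minimum mean of 5 TPM and without chromosome 3, and was at an adjusted p of 0.0503 in the fit without a block. Also without a block, it was not called with spike-in scaling (1.0), median centring (0.12), rescaling without short and mitochondrial genes (0.06), no trend (0.094) or chromosomes centred (0.073). Of the 8 fits without one library it was called in 1, without wild-type 0 h replicate 1 (0.019), and had an adjusted p of 0.064 to 0.27 in the others.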

How the results depend on the processing

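The 277 genes called at 24 h kept their sign under the alternatives that rescale or centre the values. The other alternatives could not turn the sign of groups that do not overlap. The 120 higher and 157 lower genes became 70 and 111 with no filter on low values, 2 and 6 with spike-in scaling, 68 and 92 with a replicate block across all libraries, 0 and 4 with only the 4 libraries of 24 h, and, chosen after seeing the data, 72 and 85 with each chromosome centred on its own median and 92 and 76 among genes outside chromosome 3. Leaving out one library gave 15 to 32 higher and 19 to 35 lower genes. At 0 h, 129 calls became 8 with spike-in scaling, 45 with the replicate block, 60 with chromosomes centred and 1 to 14 without one library. At 72 h, 828 became 526 with no filter, 60 with spike-in scaling, 456 with median centring, 439 with the replicate block, 262 with chromosomes centred and 41 to 91 without one library. The 0 differences between 24 h and 0 h became 1 with a pseudocount of 0.1 TPM, 5 with no filter, 1 with a mean of at least 5 TPM, 1 with spike-in scaling (*Nupr1*), 1 with either replicate block, 1 outside chromosome 3 and 0 to 4 without one library. Those between 72 h and 24 h became 9 with no filter and stayed at 0 without one library. With the replicate numbers crossed between the genotypes the counts were 355 and 391 at 24 h, 481 at 0 h, 1899 at 72 h and 4 between 24 h and 0 h, and 13 of 19 primitive endoderm genes were called lower at 24 h. *Kdelr3*, *Nupr1* and *Atf4* were among the 4 genes called between 24 h and 0 h. The cause of these changes was not tested, other than that fits with fewer libraries or genes have less to estimate the spread from. Of the 69 genes that the naming rule gave, none reversed, but 60 lost their call with spike-in scaling, 65 with only the 4 libraries of 24 h and 41 to 46 without one library.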
